A study of Mus musculus with 30 samples.

Results

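The 10 genes described here are named parts of the canonical Wnt pathway: the Frizzled receptors Fzd7 and Fzd5, the ligands Wnt8a and Wnt3, the DNA-binding factors Lef1, Tcf7 and Tcf7l1, and the target and feedback genes Axin2, Sp5 and Nkd1. They were looked up by gene symbol among the transcript clusters of the array, a cluster being the set of probes for 1 transcription unit. Of these genes, 9 had a cluster of their own among the 23385 clusters with a symbol, and each had 1 such cluster. Tcf7 matched no cluster and was not analysed here. The cells were the NgR clone of mouse embryonic stem cells, derived from rtTA-expressing Ainv15 cells and maintained on primary mouse embryonic fibroblasts, in which expression of the pluripotency factor Nanog depends on doxycycline. All groups came from this clone, so no cells free of the inducible construct were compared, and doxycycline itself cannot be told apart from Nanog. RNA was measured on 30 Affymetrix Mouse Gene 1.0 ST arrays, 3 for each of 10 groups. The groups were cells at days 1, 3 and 5 after doxycycline was withdrawn, cells of each of these days given doxycycline again for 12 h (the pulse), cells of each of these days kept without it for the same 12 h (the 12 h control), and day 0 cells in doxycycline at 1 ug/ml. No group was kept in doxycycline through to a later day, so time spent in culture and loss of doxycycline cannot be told apart.

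In canonical Wnt signalling a Wnt ligand binds a Frizzled receptor together with an Lrp co-receptor, the destruction complex built on Axin proteins is held back, and beta-catenin accumulates and works with TCF/LEF factors in the nucleus. Without beta-catenin these factors recruit Groucho/Tle corepressors. In mouse embryonic stem cells Tcf7l1 is known mainly as a repressor of pluripotency genes, Nanog among them, and Wnt signalling is known to relieve that repression. Axin2, Sp5 and Nkd1 are widely used as transcriptional readouts of the pathway, and Axin2 and Nkd1 act as feedback inhibitors of it.

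The promoters of the 3 target genes are shown because they are where TCF/LEF factors could bind, as 250 bases before to 50 after the annotated start, 5′ to 3′ in the direction of the gene, from RefSeq on GRCm38.p6. They lie on the plus strand at chr2:70474673-70474972 for Sp5, chr11:108920099-108920398 for Axin2 and chr8:88527383-88527682 for Nkd1. Capitals mark a match to the TCF/LEF site CTTTGAT or CTTTGAA on either strand, motifs that share their first 6 letters and cannot both match at 1 position.
Sp5: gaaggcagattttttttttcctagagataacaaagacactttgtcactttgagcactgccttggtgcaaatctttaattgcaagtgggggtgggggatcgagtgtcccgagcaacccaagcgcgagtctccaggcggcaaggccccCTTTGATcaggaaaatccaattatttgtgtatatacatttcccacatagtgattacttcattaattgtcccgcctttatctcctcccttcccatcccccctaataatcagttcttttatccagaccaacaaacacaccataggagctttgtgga
Axin2: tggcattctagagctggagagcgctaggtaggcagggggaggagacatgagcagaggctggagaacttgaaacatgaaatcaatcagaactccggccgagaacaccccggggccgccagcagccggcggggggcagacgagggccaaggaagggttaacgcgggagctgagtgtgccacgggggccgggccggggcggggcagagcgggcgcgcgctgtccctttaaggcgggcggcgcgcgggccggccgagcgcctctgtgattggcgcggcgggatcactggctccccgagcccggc
Nkd1: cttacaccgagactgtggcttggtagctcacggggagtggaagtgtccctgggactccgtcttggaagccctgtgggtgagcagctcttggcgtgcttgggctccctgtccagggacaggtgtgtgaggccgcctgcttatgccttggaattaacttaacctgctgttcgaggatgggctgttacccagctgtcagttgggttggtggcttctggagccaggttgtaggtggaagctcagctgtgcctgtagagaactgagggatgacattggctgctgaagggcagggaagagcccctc
Windows of 9 of the 10 genes were searched, 13 windows in all, with Tcf7 among them and Wnt8a not, and the Sp5 window was the 1 with a match, CTTTGAT starting 104 bases before the start. Of all 32851 promoter windows of this length, 8.65% held either motif. A window without a match says only that these letters are not in it.

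Nanog followed the labels, with a log2 signal of 11.01 to 11.05 on day 0, 10.17 to 10.32 on day 1, 10.48 to 10.57 on day 3 and 9.64 to 10.06 on day 5 of withdrawal. Pulsed cells held 10.70 to 11.11 over the 3 days, against 10.04 to 10.36 in their 12 h controls. The inducible and the resident Nanog cannot be told apart by this cluster. Array medians lay between 7.51 and 7.61 log2 units. The 4 arrays with the widest spread of values were all 12 h controls (day 1 replicate 3, day 3 replicate 2, and day 5 replicates 2 and 3). Called member results that rest on 12 h controls are therefore given also without them. The exception is the tests of a difference between 12 h changes, added later. Without these arrays, replicate 1 is the sole 12 h control of day 5. For day 5 and the average pulse, their spread and the loss of arrays therefore cannot be told apart. The 9 pluripotent stem cell markers had a mean log2 level of 11.40 to 11.45 per array on day 0 and 10.67 to 10.73 on day 5 of withdrawal, where 7 of 9 had fallen. Trophectoderm markers rose, 5 of 9 by day 3 (Cdx2, Gata3, Krt7, Krt8 and Krt18, with Tfap2c lower) and 5 of 9 by day 5. Of 9 extraembryonic endoderm markers 4 rose and Lama1 fell by day 5. Of 7 measured primitive streak and mesoderm markers, 0 were called on any of the 3 days by limma, with 0, 0 and 3 at an unadjusted p under 0.05. Of the 23385 clusters, 4089, 9771 and 11409 were at this unadjusted level on days 1, 3 and 5. Markers of the feeder fibroblasts, 24 of 25 measured, averaged 7.33 to 7.40 on day 0, 7.42 to 7.43 on day 1, 7.52 to 7.59 on day 3 and 7.55 to 7.66 on day 5, so all arrays of the 3 withdrawal days lay above all day 0 arrays. On day 1 0 of the 24 were called (1 at an unadjusted p under 0.05), on day 3 9 rose and Lum fell, and on day 5 10 rose and Thy1 fell. Beside all these marker counts, 3.49%, 19.6% and 23.8% of all clusters were called higher on days 1, 3 and 5. Called lower were 3.02%, 14.3% and 18.8%. In these feeder markers, 12 h controls of day 1 (7.39 to 7.51) and day 5 (7.37 to 7.49) overlapped day 0. Pulsed arrays of day 5 (7.49 to 7.57) all lay above the day 5 controls. Over 12 h without doxycycline on day 5, Postn, Mmp2, Acta2, Tagln and Thbs1 were called lower, 5 of 24. Of all clusters 3.31% were called there. In these bulk samples, a change in the share of a cell type and a change in RNA per cell cannot be told apart. The part of feeder or differentiating cells in the values below was not tested.

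Fzd7 and Fzd5 moved in opposite directions after withdrawal. They were the 2 members that lay outside the range of the day 0 arrays, on 1 side, in all 27 other arrays. Wnt8a did so in 26 of the 27. How many of all clusters did the same was not counted. Fzd7, a receptor abundant in pluripotent stem cells, had log2 signals of 8.96, 9.07 and 8.78 on day 0, 9.84, 9.93 and 9.97 on day 1, 10.38, 10.42 and 10.33 on day 3, and 10.03, 10.04 and 10.07 on day 5. All withdrawal arrays stood above all day 0 arrays, with the highest values on day 3. Against day 0, Fzd7 was higher by 0.98 ± 0.08 log2 units on day 1 (SE, 1.97-fold, adjusted p = 1.91e-08), by 1.44 ± 0.08 on day 3 (2.71-fold, adjusted p = 9.76e-13) and by 1.11 ± 0.08 on day 5 (2.15-fold, adjusted p = 3.67e-11), by limma over all 23385 clusters. Here and throughout, a gene is called when this adjusted p is under 0.05. It rose by a further 0.46 ± 0.08 at day 3 against day 1 (adjusted p = 0.000177) and then fell by 0.33 ± 0.08 at day 5 against day 3 (adjusted p = 0.00832).

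Fzd5, the other Frizzled receptor, had log2 signals of 8.57, 8.60 and 8.59 on day 0, 8.39, 8.27 and 8.25 on day 1, 7.92, 7.87 and 8.12 on day 3, and 7.71, 7.69 and 7.83 on day 5. Each later day lay below the one before it with no overlap of arrays. The fall against day 0 was -0.29 ± 0.07 log2 units on day 1 (adjusted p = 0.0101), -0.62 ± 0.07 on day 3 (adjusted p = 9.18e-08) and -0.85 ± 0.07 on day 5 (1.80-fold lower, adjusted p = 1.43e-10). The steps were called too, at -0.33 ± 0.07 at day 3 against day 1 (adjusted p = 0.000781) and -0.23 ± 0.07 at day 5 against day 3 (adjusted p = 0.0316). The day 1 call was lost without day 1 withdrawal replicate 3 (adjusted p = 0.0619), and the last step was lost in 4 of 40 alternatives, 3 of which left out a single array.

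**Figure D1:**
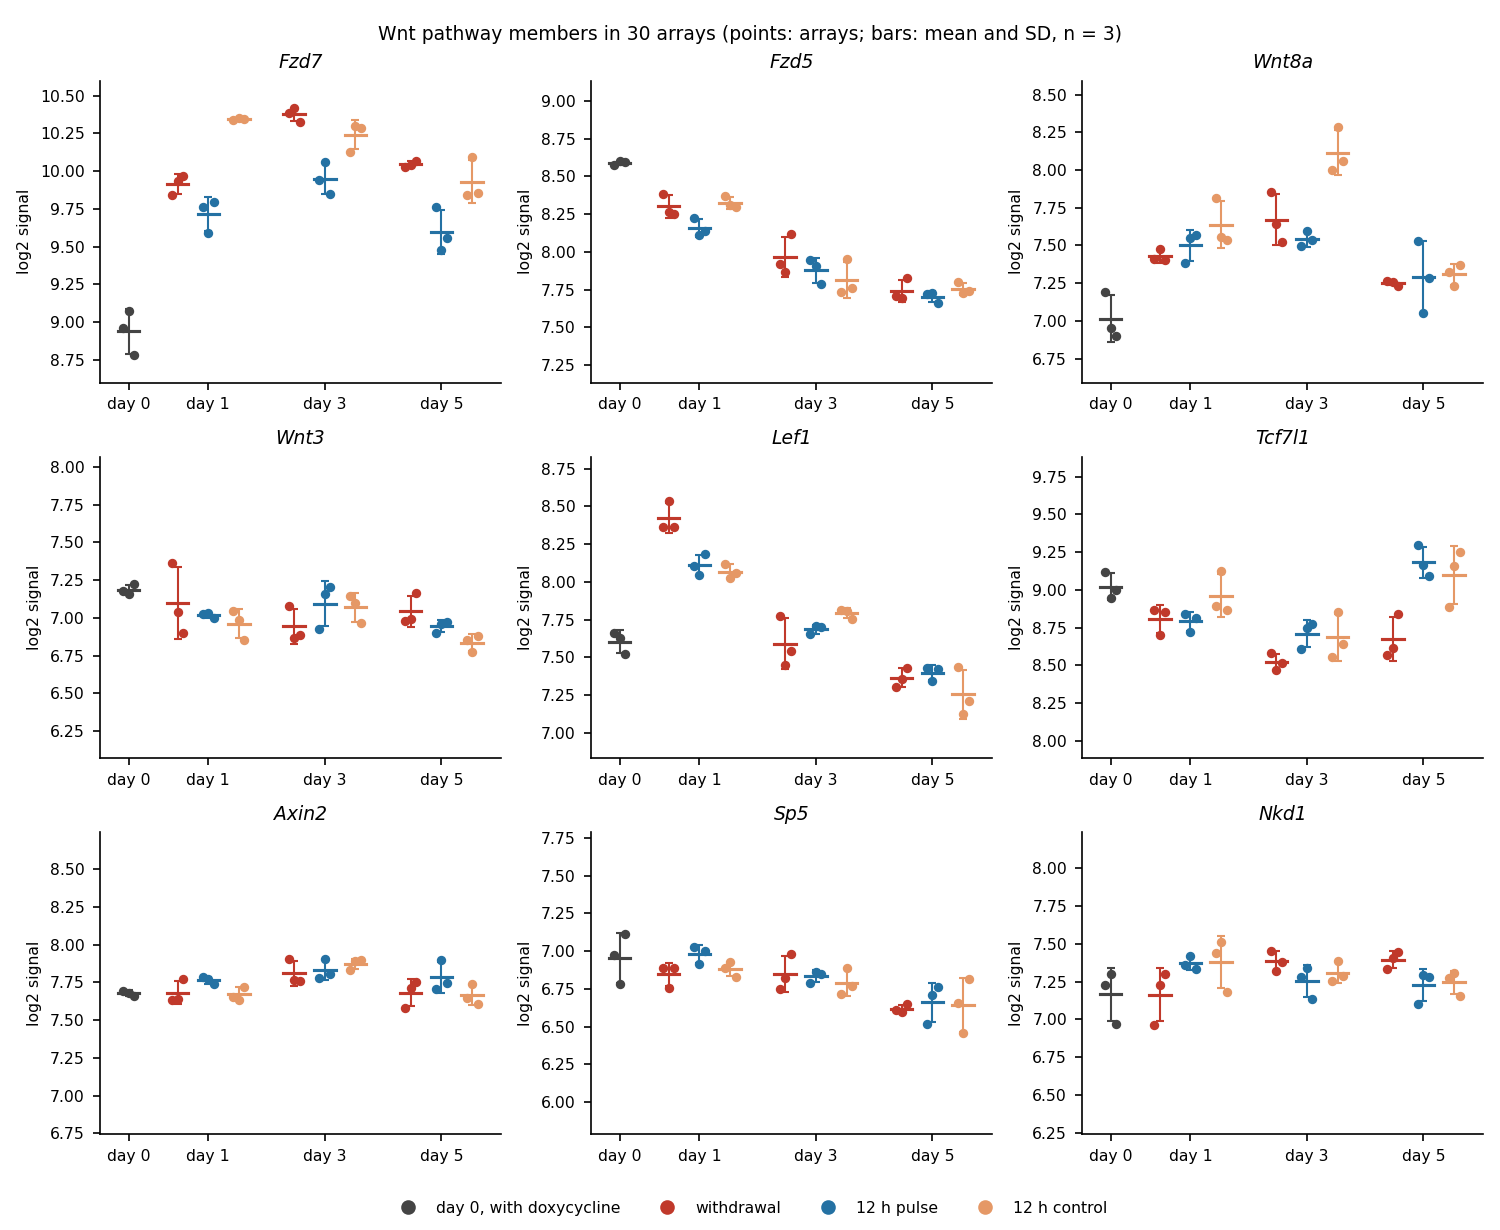
Log2 signal of the 9 measured members (y axis, 2 log2 units in every panel) in the 30 arrays, by day (x axis) with withdrawal, pulse and 12 h control side by side; points are arrays, bars the mean and SD of 3. The day 0 points of Fzd7 lie below, and those of Fzd5 above, all 27 other points in their panels, while Axin2 group means span 0.21 log2 units.

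Among the ligands, Wnt8a rose on days 1 and 3 and Wnt3 fell on day 3. Wnt8a, a ligand of the early embryo linked to the primitive streak, had log2 signals of 7.19, 6.95 and 6.90 on day 0, 7.41, 7.48 and 7.40 on day 1, 7.85, 7.64 and 7.52 on day 3, and 7.26, 7.26 and 7.23 on day 5. Every withdrawal array was above the day 0 arrays, and day 5 lay closest to them. The change against day 0 was 0.41 ± 0.10 on day 1 (1.33-fold, adjusted p = 0.0140) and 0.66 ± 0.10 on day 3 (1.58-fold, adjusted p = 1.59e-05), and on day 5 it was 0.24 ± 0.10, which was not called (adjusted p = 0.0709). At day 5 Wnt8a had fallen by 0.42 ± 0.10 against day 3 (adjusted p = 0.00683). The day 1 call was lost without day 0 replicate 2, day 0 replicate 3 or day 1 withdrawal replicate 2, with adjusted p up to 0.0991, and the last step without day 3 withdrawal replicate 1 (adjusted p = 0.0666).

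Wnt3, the ligand required for the primitive streak in the mouse embryo, had log2 signals of 7.18, 7.15 and 7.22 on day 0, 7.36, 7.04 and 6.90 on day 1, 7.08, 6.86 and 6.89 on day 3, and 6.98, 6.99 and 7.16 on day 5. The day 3 arrays alone stood apart from day 0. It fell by 0.24 ± 0.09 on day 3 (1.18-fold lower, adjusted p = 0.0429), a call lost in 6 of 39 alternatives, among them the leaving out of any 1 of the 3 day 0 arrays (adjusted p up to 0.160). The changes on day 1 (-0.08 ± 0.09, adjusted p = 0.733) and day 5 (-0.14 ± 0.09, adjusted p = 0.235) were not called. Wnt3 and Sp5 lay among the 40% of clusters with the lowest mean signal, and the other 7 members did not.

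Of the TCF/LEF factors, Lef1 had a transient peak and Tcf7l1 was lower on days 3 and 5 of withdrawal. In the 12 h controls of day 5, Tcf7l1 overlapped day 0, as given below. Lef1, usually an activator with beta-catenin, had log2 signals of 7.66, 7.63 and 7.52 on day 0, 8.37, 8.54 and 8.36 on day 1, 7.78, 7.45 and 7.54 on day 3, and 7.31, 7.36 and 7.43 on day 5. Day 1 stood above all other withdrawal days, day 3 overlapped day 0, and day 5 lay below it. Lef1 rose by 0.82 ± 0.08 on day 1 (1.76-fold, adjusted p = 1.11e-07), was at -0.01 ± 0.08 on day 3 (adjusted p = 0.915), and fell by 0.24 ± 0.08 on day 5 (adjusted p = 0.0162). At day 3 the change against day 1 was -0.83 ± 0.08 (1.78-fold lower, adjusted p = 2.09e-08). The day 5 call was lost without day 0 replicate 1 or day 5 withdrawal replicate 1 (adjusted p up to 0.0706).

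Tcf7l1, the repressive member of the family, had log2 signals of 9.12, 8.95 and 9.00 on day 0, 8.87, 8.70 and 8.85 on day 1, 8.58, 8.47 and 8.51 on day 3, and 8.57, 8.62 and 8.84 on day 5. All 9 withdrawal arrays were below the day 0 arrays. The change was -0.21 ± 0.10 on day 1, which was not called (adjusted p = 0.233), -0.50 ± 0.10 on day 3 (1.41-fold lower, adjusted p = 0.000171) and -0.34 ± 0.10 on day 5 (adjusted p = 0.00463). The step of -0.29 ± 0.10 at day 3 against day 1 was called (adjusted p = 0.0313), but not in 4 of 40 alternatives, each of which left out 1 array of day 1 (replicate 1 or 3) or day 3 (replicate 2 or 3).

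Of the 3 target genes, Sp5 fell on day 5, Nkd1 reached the threshold there and Axin2 was not called on any day. Axin2, the negative feedback scaffold of the destruction complex, had log2 signals of 7.70, 7.68 and 7.66 on day 0, 7.63, 7.64 and 7.77 on day 1, 7.90, 7.76 and 7.76 on day 3, and 7.58, 7.71 and 7.76 on day 5. Its arrays overlapped those of day 0 on days 1 and 5. Its changes were 0.00 (95% interval -0.13 to 0.14), 0.13 (0.00 to 0.26, adjusted p = 0.131) and 0.00 (-0.13 to 0.14) log2 units on days 1, 3 and 5.

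Sp5, a zinc finger repressor induced by beta-catenin, had log2 signals of 6.97, 6.78 and 7.11 on day 0, 6.89, 6.76 and 6.89 on day 1, 6.75, 6.82 and 6.98 on day 3, and 6.61, 6.60 and 6.65 on day 5. Day 5 was the day without overlap with day 0. Sp5 fell by 0.34 ± 0.09 on day 5 (1.26-fold lower, adjusted p = 0.00233), and the changes of -0.11 ± 0.09 on both earlier days were not called (adjusted p = 0.593 and 0.384).

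Nkd1, an inhibitor that binds Dishevelled proteins, had log2 signals of 7.23, 7.30 and 6.97 on day 0, 6.96, 7.23 and 7.30 on day 1, 7.46, 7.32 and 7.38 on day 3, and 7.34, 7.41 and 7.44 on day 5. Days 3 and 5 lay above day 0 without overlap. The change of 0.23 ± 0.09 on day 5 was at the threshold (adjusted p = 0.0495) and lost the call in 26 of 40 alternatives, with adjusted p up to 0.327. The day 3 change of 0.22 ± 0.09 was not called (adjusted p = 0.0741).

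Counted together, 3 of the 9 measured members rose and 1 fell on day 1, against 3.49% and 3.02% of all tested clusters. On day 3, 2 rose and 3 fell, against 19.6% and 14.3% of clusters, and on day 5, 2 rose and 4 fell, against 23.8% and 18.8%. The median change of the 9 was 0.00, -0.01 and -0.14 log2 units on the 3 days, where the median of all clusters was 0.02, 0.02 and -0.01. Between days 1 and 3, 4 members changed (22.9% of clusters), and between days 3 and 5, 3 members did (12.3%). These 9 genes were chosen with results of these arrays known, so the counts describe them and test nothing. With the 4 widest arrays left out the counts called were again 4, 5 and 6 for the 3 days. Those 4 arrays are 12 h controls and enter none of these comparisons with day 0. Leaving them out could alter only the shared estimate of spread, so this says little about the counts.

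**Figure D2:**
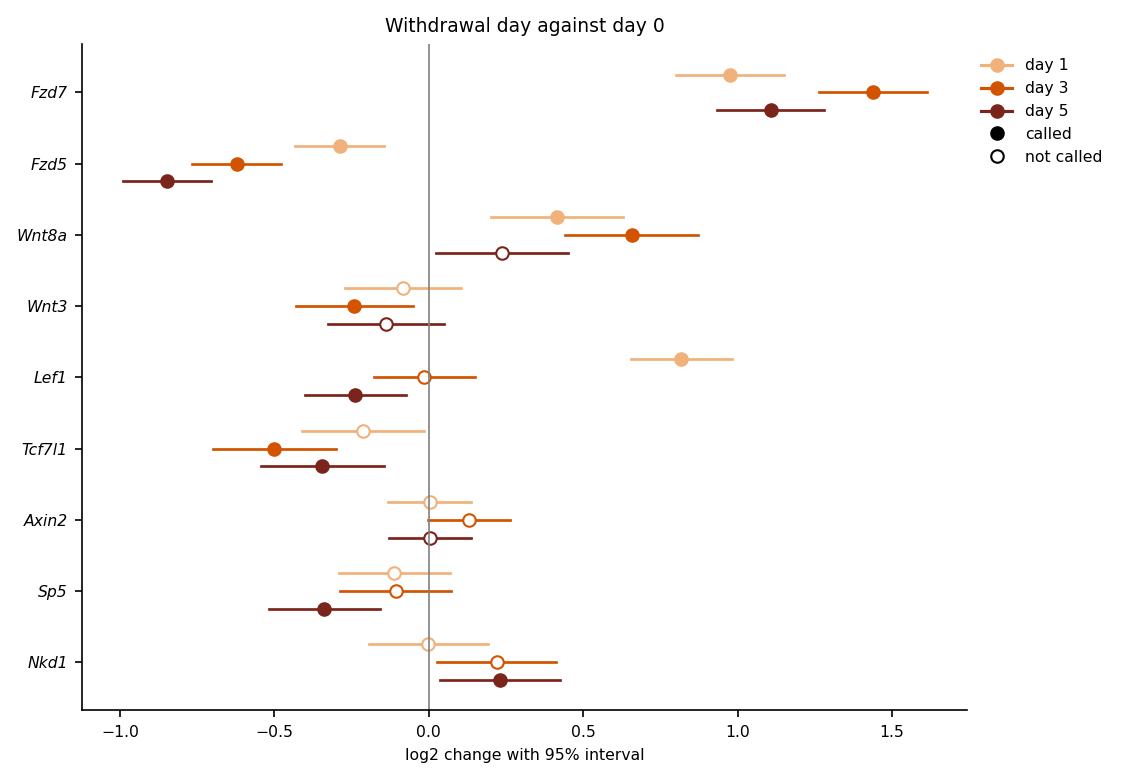
Log2 change of each member (x axis, with 95% interval) on days 1, 3 and 5 of withdrawal against day 0; filled points are called at an adjusted p under 0.05 by limma. Fzd7 lies at 0.98, 1.44 and 1.11, Fzd5 falls stepwise to -0.85, Lef1 is at 0.82 on day 1 and -0.24 on day 5, and Axin2 stays within intervals that include 0.

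The pulse asked which of these levels moved back within 12 h of renewed doxycycline, against cells kept without it for the same time. Fzd7 was the member called on more than 1 day. On day 1 its log2 signal was 9.76, 9.59 and 9.80 in pulsed cells, against 10.34, 10.35 and 10.34 in the 12 h controls. On day 3 it was 9.94, 10.06 and 9.85 in pulsed cells, against 10.13, 10.30 and 10.29 in the controls. On day 5 it was 9.76, 9.48 and 9.55 in pulsed cells, against 9.84, 10.09 and 9.86 in the controls. In all 3 days every pulsed array was below every control array, and also below every array of that day's withdrawal group, a comparison that was not tested.

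The Fzd7 difference was -0.63 ± 0.08 log2 units on day 1 (1.55-fold lower, adjusted p = 8.94e-05), -0.29 ± 0.08 on day 3, which was not called (unadjusted p = 0.00205, adjusted p = 0.165), and -0.33 ± 0.08 on day 5 (1.26-fold lower, adjusted p = 0.0151). Averaged over the 3 days it was -0.42 ± 0.05 (1.33-fold lower, adjusted p = 5.17e-06). Without the 4 widest arrays, the average was -0.38, the day 1 value -0.63 (adjusted p = 0.000278) and the day 3 value -0.26 (adjusted p = 0.350). The day 5 value was then -0.24, against control replicate 1 alone, and was no longer called. The day 5 call was lost in 6 of 40 alternatives, among them those without day 5 12 h control replicate 2, day 5 pulse replicate 2 or day 5 pulse replicate 3. The Fzd7 pulse effects did not pass the test of a difference between days: day 3 minus day 1 was 0.34 ± 0.12 (adjusted p = 0.545) and day 5 minus day 1 was 0.30 ± 0.12 (adjusted p = 0.299).

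Pulsed Fzd7 did not return to its day 0 level. It stayed above day 0 by 0.78 ± 0.08 log2 units on day 1 (adjusted p = 1.25e-06), 1.01 ± 0.08 on day 3 (adjusted p = 1.24e-09) and 0.66 ± 0.08 on day 5 (adjusted p = 4.06e-07). Nanog in the same pulsed cells differed from day 0 by 0.05, -0.07 and -0.19 on these days, none of them called (adjusted p = 0.740, 0.622 and 0.0610).

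Wnt8a was lower with the pulse on day 3, with log2 signals of 7.49, 7.60 and 7.54 in pulsed cells, against 8.00, 8.28 and 8.06 in the 12 h controls. The groups did not overlap, and the pulsed arrays lay within the range of the day 3 withdrawal group or just below it. The difference was -0.57 ± 0.10 (1.49-fold lower, adjusted p = 0.0281). This call was lost in 9 of 40 alternatives, including each of the 6 that left out 1 of the arrays compared and the 1 without the widest arrays (-0.49, adjusted p = 0.242). On day 3, 8 clusters in all were called lower. On day 1 the Wnt8a difference was -0.14 ± 0.10 (adjusted p = 0.565) and on day 5 -0.02 ± 0.10 (adjusted p = 0.908), both with overlapping arrays. The average over the 3 days was -0.24 ± 0.06 (adjusted p = 0.00803), which without the widest arrays kept its size at -0.24 and lost the call (adjusted p = 0.0919). The day 5 minus day 3 difference of 0.55 ± 0.15 was not called (adjusted p = 0.0622).

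Counted over the 9 members, 1 was lower with the pulse on day 1 (Fzd7, with 3.2% of clusters lower), 1 on day 3 (Wnt8a, 0.0342%), 1 on day 5 (Fzd7, 7.1%) and 2 in the average (14.0% lower and 6.8% higher). By limma 0 members differed between the pulses of different days. Clusters called were 0.00855% for day 3 against day 1, 0.111% for day 5 against day 1 and 0.936% for day 5 against day 3. At an unadjusted p under 0.05 there were 3 members for day 3 against day 1, with 1541 of the 23385 clusters. At the same level there were 1 for day 5 against day 1 (2938 clusters) and 2 for day 5 against day 3 (3788 clusters).

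The other 7 members were not called in any pulse contrast. The intervals of their average pulse change were -0.13 to 0.03 for Fzd5, -0.04 to 0.17 for Wnt3, -0.07 to 0.12 for Lef1, -0.13 to 0.09 for Tcf7l1, -0.02 to 0.13 for Axin2, -0.05 to 0.16 for Sp5 and -0.14 to 0.08 for Nkd1. Without the 4 widest arrays these 7 average changes lay between -0.06 and 0.07 and none was called. Among these 7, leaving out the widest arrays moved the single-day change of Tcf7l1 on day 5 the most. It was 0.08 ± 0.10 with all arrays (adjusted p = 0.542) and 0.30 without the widest, called in neither case. With all arrays the largest single-day change of the 7 was Tcf7l1 on day 1, at -0.17 ± 0.10 (adjusted p = 0.397). The average pulse bounds with all arrays are smaller than the withdrawal changes of Fzd5 on every day and Lef1 on day 1. This does not hold for the day 1 pulse alone in Fzd5, at -0.17 with an interval of -0.31 to -0.03. That bound exceeds its day 1 withdrawal change of -0.29 in size. The day 1 arrays did not overlap, and Fzd5 was not called there (limma unadjusted p = 0.0230, adjusted p = 0.207). Fzd5 was 7.72, 7.73 and 7.66 in pulsed cells of day 5, against 7.80, 7.73 and 7.74 in the controls, and its change in pulsed cells against day 0 was -0.89 ± 0.07 (adjusted p = 7.12e-11). Lef1 was 8.11, 8.05 and 8.18 in pulsed cells of day 1, against 8.12, 8.02 and 8.06 in the controls, and remained 0.51 ± 0.08 above day 0 (adjusted p = 0.000131).

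**Figure D3:**
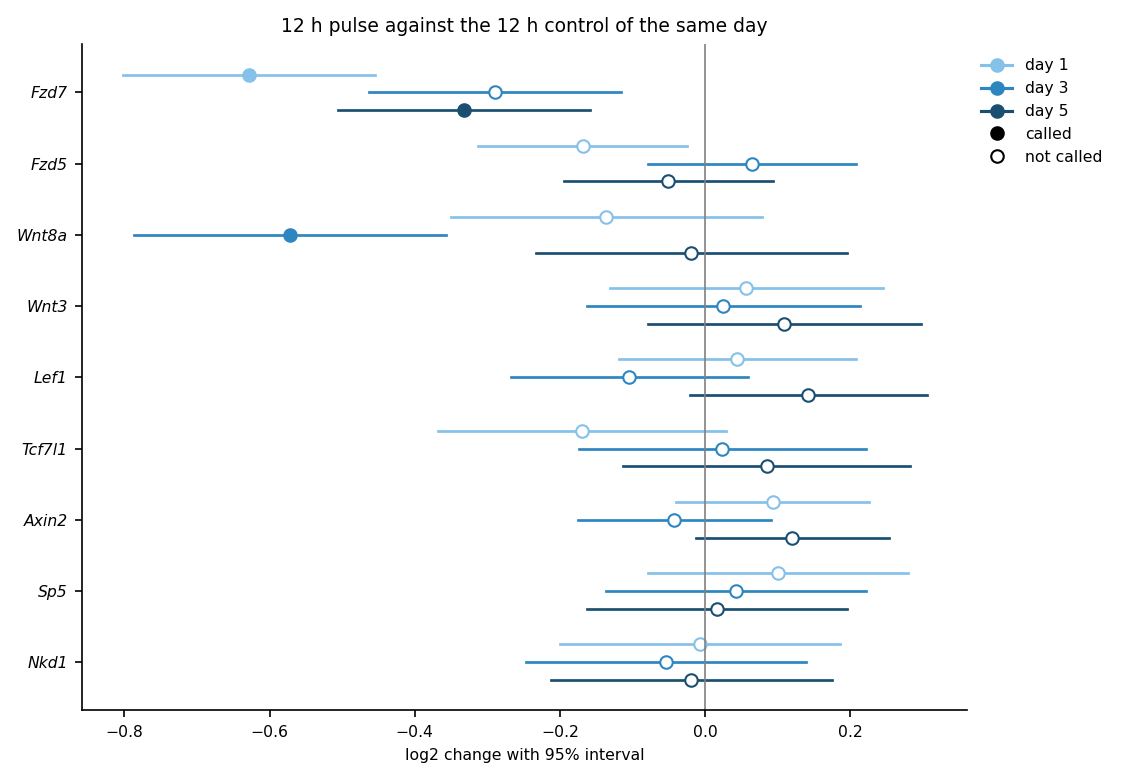
Log2 change of each member (x axis, with 95% interval) in cells given a 12 h doxycycline pulse against the 12 h control of the same day; filled points are called at an adjusted p under 0.05 by limma. Fzd7 lies at -0.63, -0.29 and -0.33 on days 1, 3 and 5 and Wnt8a at -0.57 on day 3, and no other member has a filled point.

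Set against day 0, 4 of 9 members differed in pulsed cells of day 1 (Fzd7, Wnt8a and Lef1 higher and Fzd5 lower, with 11.2% of clusters called), 4 in pulsed cells of day 3 (Fzd7 and Wnt8a higher, Fzd5 and Tcf7l1 lower, 25.3%) and 6 in pulsed cells of day 5 (Fzd7 and Wnt8a higher, Fzd5, Wnt3, Lef1 and Sp5 lower, 39.2%). Of the day 5 calls, Wnt8a was lost in 8 of 40 alternatives, Lef1 in 6 of 40, Wnt3 in 6 of 39 and Sp5 in 2 of 39, while Fzd7 and Fzd5 were lost in 0 of 40. The count for day 5 dropped to 2 without pulse replicate 1 and to 3 without pulse replicate 3, day 0 replicate 2 or day 0 replicate 3. These comparisons share the day 0 arrays with those of withdrawal. Tcf7l1 in pulsed cells of day 5 was at 9.30, 9.16 and 9.09, against 9.12, 8.95 and 9.00 on day 0, a difference of 0.16 ± 0.10 that was not called (adjusted p = 0.199).

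Over the 12 h without doxycycline some members went on moving in the controls. On day 1, Fzd7 was 0.43 ± 0.08 higher after 12 h than in the withdrawal group at the start (adjusted p = 0.00351) and Lef1 was lower, with a log2 change of -0.35 ± 0.08 (adjusted p = 0.00899), so 2 of 9 were called (6.25% of clusters). On day 3, Wnt8a was higher by 0.44 ± 0.10 (adjusted p = 0.0233, 1.69% of clusters), and on day 5, Tcf7l1 was higher by 0.42 ± 0.10 (adjusted p = 0.0138, 3.31%). Tcf7l1 on day 5 had 8.88, 9.16 and 9.25 in the 12 h controls, against 8.57, 8.62 and 8.84 in the withdrawal group. These controls, with a mean of 9.10, overlapped the day 0 arrays (9.12, 8.95 and 9.00, mean 9.02), a comparison that was not tested. Without the widest arrays the day 1 changes were 0.43 for Fzd7 (adjusted p = 0.00551) and -0.35 for Lef1 (adjusted p = 0.0107). The Wnt8a call was lost, at 0.36 (adjusted p = 0.166). So was the Tcf7l1 call, at 0.21 with control replicate 1 alone left on day 5. Nkd1 on day 1, at 0.21 ± 0.09 and not called with all arrays (adjusted p = 0.187), was at 0.31 and called without the widest (adjusted p = 0.0487). The pulse effects above therefore compare cells with a control that was itself changing in Fzd7 on day 1 and in Wnt8a on day 3.

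Ranked over the 10 groups, Fzd7 ran from 10.38 ± 0.04 in the day 3 withdrawal group and 10.35 ± 0.01 in the day 1 12 h controls down to 9.60 ± 0.15 in pulsed cells of day 5 and 8.94 ± 0.15 on day 0 (SD, n = 3). Of the 9 pairs of neighbours in this order, 4 had no overlap of arrays, and the step from pulsed cells of day 5 to day 0 was among them. Lef1 also had 4 such pairs, with 8.42 ± 0.10 in the day 1 withdrawal group at the top and 7.26 ± 0.16 in the day 5 12 h controls at the bottom. Wnt8a had 3, from 8.11 ± 0.15 in the day 3 12 h controls to 7.01 ± 0.16 on day 0. Fzd5 had 2, with 8.59 ± 0.01 on day 0 at the top and 7.70 ± 0.04 in pulsed cells of day 5 at the bottom. Wnt3, Tcf7l1, Axin2, Sp5 and Nkd1 had 0 of 9. Neighbours in an order sorted by mean are the closest groups, so their overlap does not show that groups are alike. Such pairs were not counted over all clusters. Group means spanned 1.44 log2 units for Fzd7, 1.17 for Lef1, 1.10 for Wnt8a, 0.89 for Fzd5, 0.66 for Tcf7l1, 0.36 for Sp5, 0.35 for Wnt3, 0.23 for Nkd1 and 0.21 for Axin2.

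As a description, the likeness of other genes was taken as Pearson's r over the 10 group means, among the 1300 of 21780 clusters with 1 symbol whose group means spanned at least 1 log2 unit. All points share the same arrays, and no p is given. The highest for Fzd7 were Acss1 (0.98), Mir19b-2 and Liph (both 0.97), and for Fzd5 N4bp3, Pcolce (both 0.98) and Dyrk3 (0.97). For Wnt8a they were Gbp4 (0.93), Pdk1 and Mir363 (both 0.91), for Lef1 Car3 (0.95), Dnmt3a and Fgf15 (both 0.94), and for Sp5 Slc7a3, Ina and Zfp459 (all 0.97). They were lower for Tcf7l1 (Phlda2 0.92, Lgals3 0.85, S100a6 0.79), Nkd1 (Tspan2 0.84, Micu3 and Meioc 0.82), Axin2 (Mir367 0.81, Mir302d 0.80, Igfbp3 0.79) and Wnt3 (Myl7 0.79, Cpe 0.78, Actc1 0.76). Between members, r was 0.81 for Fzd5 with Sp5 and 0.74 for Fzd7 with Wnt8a, and -0.42 for Fzd7 with Fzd5. Clusters of microRNAs can share probes with near-identical copies, so their values are uncertain.

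Of 97 other genes of the pathway, 95 had a cluster (T and Ephb2 did not). On day 1 of withdrawal 4 rose and 4 fell, on day 3 34 rose and 13 fell, and on day 5 37 rose and 12 fell, against the shares of all clusters given above. The list medians were 0.06, 0.06 and 0.06 log2 units, where the medians of all clusters were 0.02, 0.02 and -0.01. The early changes on day 1 were Sfrp1 (-0.65 ± 0.10), Sfrp5 (-0.37 ± 0.10), both secreted Frizzled-related proteins that bind Wnt ligands, Tle3 (-0.35 ± 0.07) and Ccnd1 (-0.40 ± 0.08), and upward Wnt5a (0.42 ± 0.10), Tle4 (0.38 ± 0.10), Chd8 (0.32 ± 0.08) and Tnfrsf19 (0.29 ± 0.06). None of the 16 other receptors or 18 cytoplasmic genes was called then by limma, with 2 and 1 at an unadjusted p under 0.05.

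By ligand handling, Wls, the carrier that takes Wnt ligands to the cell surface, rose by 1.11 ± 0.11 on day 3 and 1.86 ± 0.11 on day 5 (adjusted p = 4.75e-13). Porcn, the enzyme that acylates them, changed by -0.56 ± 0.06 and -0.79 ± 0.06 (adjusted p = 2.42e-11). Among the ligands, Wnt3a was at -0.43 ± 0.12 on day 3 and Wnt10b at -0.46 ± 0.12 on day 5. Of the 16 other receptors, 8 rose and 2 fell on day 3, and 7 rose and 1 fell on day 5. Of all clusters, 19.6% rose and 14.3% fell on day 3, and 23.8% rose and 18.8% fell on day 5. Fzd2 rose by 0.42 ± 0.09 and 0.74 ± 0.09 on these days, Ror2 by 0.38 ± 0.07 and 0.55 ± 0.07, Fzd6 by 0.73 ± 0.07 on day 3 and the co-receptor Lrp6 by 0.31 ± 0.08 and 0.43 ± 0.08. Lgr4, an R-spondin receptor, was the 1 that fell on day 5 (-0.56 ± 0.12).

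Genes listed as inhibitors outside the cell and at the membrane went both ways, 7 of 17 higher and 3 lower on day 3. On day 5, 6 were higher and 4 lower. The listing does not show that each of them inhibits the pathway in these cells. Sfrp2 rose by 0.65 ± 0.10 on day 3 while Sfrp1 (-0.60 ± 0.10) and the Wnt deacylase Notum (-0.49 ± 0.10) were lower, and on day 5 Kremen1 (0.85 ± 0.08) and Dkk3 (0.73 ± 0.11) were higher and Sfrp4 (-0.95 ± 0.11) lower. Of the 18 cytoplasmic genes 10 were higher and 0 lower on day 3, where 19.6% of all clusters were higher and 14.3% lower, and 12 were higher and 0 lower on day 5, against 23.8% and 18.8%. These counts describe the genes listed and were not tested. These 12 hold both inhibitors and transducers of the signal. The casein kinase Csnk1e rose by 0.90 ± 0.08 and 0.99 ± 0.08, Tnks2 (0.52 ± 0.07) and Apc (0.39 ± 0.07) rose on day 3, and Btrc (0.63 ± 0.11) and Tnks (0.58 ± 0.08) on day 5. Ctnnb1, which encodes beta-catenin, rose by 0.20 ± 0.05 on day 3 and 0.27 ± 0.05 on day 5, and Gsk3b by 0.41 ± 0.09 on day 5 (0.20 ± 0.09 on day 3, adjusted p = 0.111).

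Of 10 nuclear genes, 2 rose and 3 fell on day 3, and 4 rose and 2 fell on day 5. Beside these counts and those of the other targets below, 19.6% of all clusters rose and 14.3% fell on day 3. On day 5 these shares were 23.8% and 18.8%. The corepressor Tle4, higher on day 1, was at -0.28 ± 0.10 on day 3 and -0.79 ± 0.10 on day 5, Pygo2 at -0.27 ± 0.08 and Chd8 at 0.25 ± 0.08 on day 3, and Tcf7l2 (0.33 ± 0.07) and Bcl9l (0.32 ± 0.07) were higher on day 5. Of 11 other targets, 4 rose and 2 fell on both days. The largest falls on the list were Ccnd1, cyclin D1, at -1.98 ± 0.08 on day 3 and -2.43 ± 0.08 on day 5 (5.40-fold lower, adjusted p = 2.33e-18), and Myc at -1.28 ± 0.13 and -2.07 ± 0.13 (adjusted p = 7.17e-13). Both genes also answer to many signals other than Wnt. Tnfrsf19 (0.40 ± 0.06 on day 3) and Ephb3 (0.57 ± 0.09 on day 5) were higher, while Axin2 was called on neither day.

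In the average pulse, 6 of the 95 rose and 20 fell, where 6.8% of all clusters rose and 14.0% fell, with a list median of 0.00 (0.01 for all clusters). Without the 4 widest arrays 5 of the 95 were called, 4 of them among the 26, and all 26 kept their direction. The 4 were Csnk1e (-0.34 ± 0.05 with all arrays, adjusted p = 5.74e-05, and -0.28 without the widest), Porcn (0.16 ± 0.03, and 0.18), Ccnd1 (0.26 ± 0.05, and 0.26) and Myc (0.22 ± 0.07, and 0.36). Each ran opposite to its withdrawal change. The other named genes lost their calls without the widest arrays, some with changes of much the same size. Rspo2 was at 0.14 with all arrays and 0.14 without the widest, Ctnnb1 at -0.11 and -0.10, and Znrf3 at -0.25 and -0.21. Btrc was at -0.24 and -0.18, Tnks2 at -0.20 and -0.15, and Fzd4 at -0.20 and -0.14. The change was over 1.5 times smaller without the widest arrays for Wnt2 (0.20 with all arrays and 0.06 without the widest), Dkk2 (0.21 and 0.06), Fzd3 (-0.22 and -0.07), Sfrp2 (-0.22 and -0.09), Lrp6 (-0.19 and -0.12), Chd8 (-0.15 and -0.06), Bcl9 (-0.14 and -0.04) and Ephb3 (-0.24 and -0.15). Gsk3b was not called (-0.10 ± 0.05, adjusted p = 0.194).

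**Figure D4:**
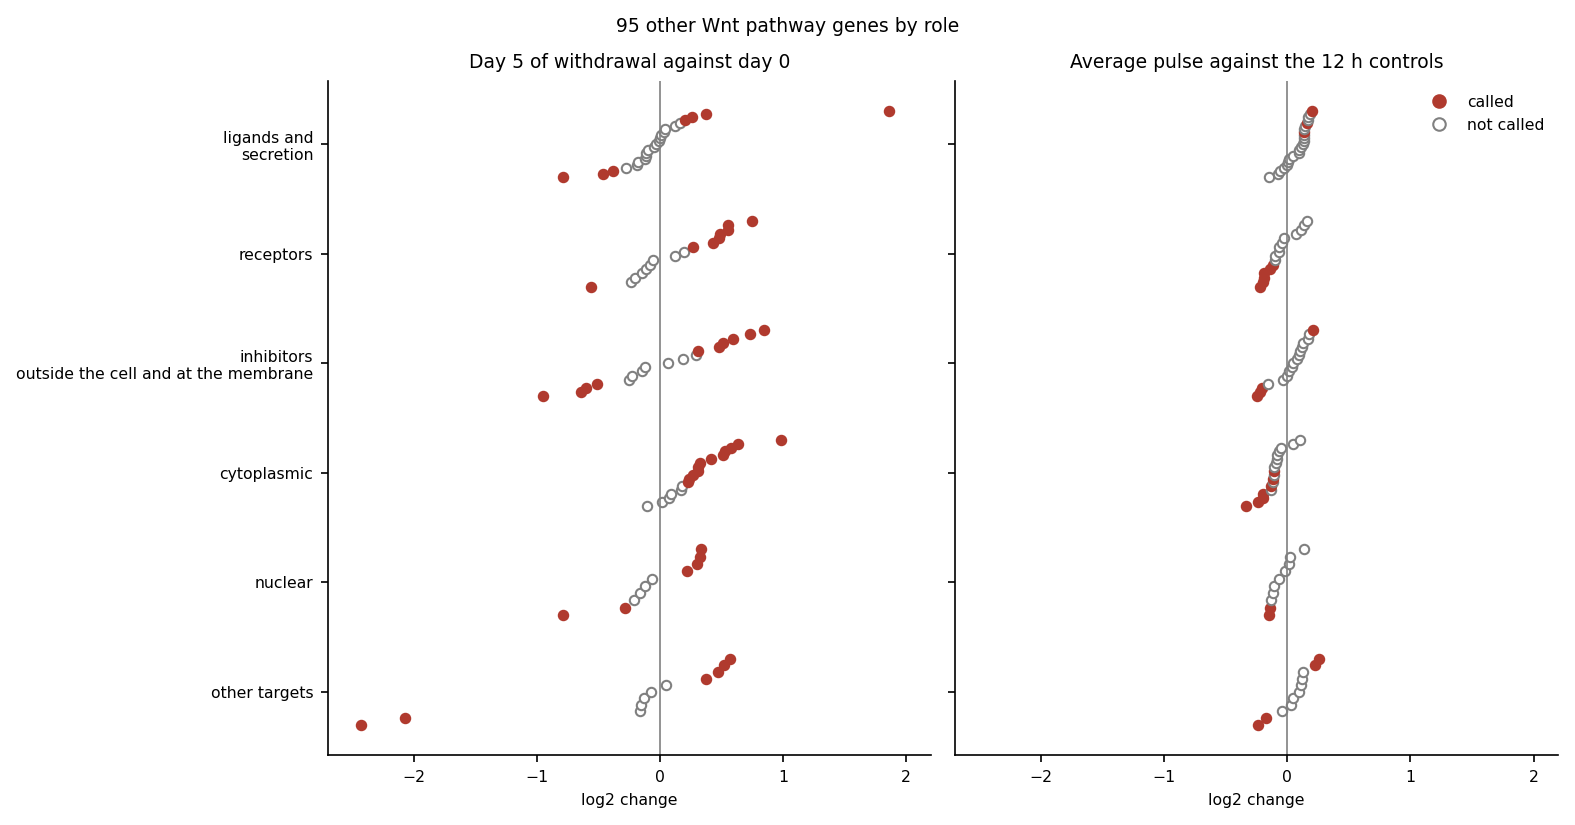
Log2 change (x axis) of the 95 other Wnt pathway genes, 1 point a gene, sorted within 6 role groups (y axis), on day 5 of withdrawal against day 0 (left) and in the average pulse against the 12 h controls (right); filled points are called at an adjusted p under 0.05 by limma. On day 5, 12 of 18 cytoplasmic genes are filled to the right of 0 and Ccnd1 and Myc lie beyond -2; pulse changes stay within 0.34 of 0 and 4 of the 26 filled points stay called without the 4 widest control arrays.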

How the data were processed

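Total RNA of the NgR clone was measured on 30 arrays in 10 groups of 3. The authors deposited log2 signals per transcript cluster. Per the submitters' processing notes, these came from Affymetrix Expression Console and RMA, a method that removes background, brings the arrays' probe signals to a common distribution and combines the probes of a cluster, so shifts shared by most genes are largely removed. The deposited cluster values still differed in spread, with interquartile ranges of 2.39 to 2.94 log2 units. Software versions and a genome build for the arrays are not given in the sources used here. The 28815 clusters were named through the platform annotation: 21780 had 1 symbol, 1605 several and 5430 none. The 23385 with a symbol were tested with limma 3.58.1 (R 4.3.3) in 1 model of the 10 group means over all 30 arrays, with Benjamini-Hochberg adjustment within each of 18 contrasts. Calls are at an adjusted p under 0.05. The number of arrays limits the precision. Whether the 3 replicates came from separate cultures is not stated in the labels, so the p-values reflect spread among arrays that may be technical. No 2 replicates held identical values. In the median, same-numbered arrays did not deviate together (r -0.01 for the same number and 0.00 for other numbers), so numbers were treated as names. Single same-numbered pairs of the contrasts checked ran from -0.72 (day 5 pulse and its control, replicate 1) to 0.35 (day 3 withdrawal and day 0, replicate 3). Members are the 10 listed genes, each given by its single-symbol cluster of highest mean. Named pathway genes are Ctnnb1, Gsk3b, Lrp6 and Ccnd1 and, per role group, up to 3 called genes of largest change in each withdrawal contrast and the average pulse; known Tcf7l1-repressed genes and the 3 genes most like each member are named too. Members and lists were chosen with earlier results of these data known. Alternatives covered scaling, filtering, variance settings, array weights, a covariate for array spread, a replicate block, and left-out arrays. The procedure was run on simulated data with independent noise per cluster and shifts in the day 5 withdrawal group alone. That simulation held no array-wide spread, so it says nothing about the wide 12 h controls. Promoter sequences come from RefSeq on GRCm38.p6.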

Additional observations from a re-analysis of the deposited data

Results flagged for a closer look

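The change of Fzd7 over 12 h without doxycycline differed between days 1 and 3, with a call on day 1 alone and no overlap of arrays on either day. On day 1 it was 10.34, 10.35 and 10.34 in the 12 h controls, against 9.84, 9.93 and 9.97 in the withdrawal group, a change of 0.43. On day 3 it was 10.13, 10.30 and 10.29 in the 12 h controls, against 10.38, 10.42 and 10.33 in the withdrawal group, a change of -0.14 that was not called (95% interval -0.31 to 0.04, limma adjusted p = 0.578). A test of the difference, chosen after seeing the data, gave -0.57 ± 0.12 for day 3 minus day 1 (limma, adjusted p = 0.00806 over 23385 clusters, 671 of them called). The same test for day 5 minus day 1 gave -0.55 ± 0.12 (adjusted p = 0.0072). Lef1 was the other member that passed for day 3 minus day 1, at 0.56 ± 0.11 (adjusted p = 0.00597). Without the 4 widest arrays the Fzd7 changes were 0.43 on day 1, -0.17 on day 3 and -0.20 on day 5. Those of Lef1 were -0.35 on day 1 and 0.19 on day 3. The tests of a difference were not repeated without these arrays.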

How the results depend on the processing

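Every member value was recomputed under 10 other settings and without each of the 30 arrays in turn. Of 6444 such values, 6307 kept their side of the threshold, 100 lost a call and 37 gained one. No value with a call in the setting reported or in the alternative changed sign, and 120 values called in neither did. Counts of members called against day 0 on days 1, 3 and 5 (4, 5 and 6) stayed within 1.5 times under every setting, and the replicate block gave 4, 5 and 6 and changed no other count of members. Without any 1 array they ranged from 3 to 4, 4 to 5 and 4 to 7.

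Leaving out the 4 widest arrays gave 5 members between days 3 and 5 (3 with all arrays), 0 for the pulse on day 3 and on day 5 (1 each), 1 for the average pulse (2), 0 over 12 h without doxycycline on days 3 and 5 (1 each), and 5 other pathway genes for the average pulse (26). Array weights gave 5 between days 3 and 5, 2 for the pulse on day 1 (1) and on day 3, 2 for the difference of the day 3 and day 1 pulses (0), 1 for that of day 5 and day 3 (0), 4 over 12 h on day 1 (2), and 20 pathway genes on day 1 (8) and 61 for the average pulse. The interquartile range as covariate gave 0 for the pulse on day 5, 1 for the average pulse, 1 for the difference of the day 5 and day 3 pulses, and 15 pathway genes on day 1 and 8 for the average pulse. The compared groups alone gave 0 for the pulse on days 3 and 5, 1 over 12 h on day 1 and 0 on days 3 and 5, and 16 pathway genes for the average pulse. Subtracting array medians gave 0 for the pulse on day 3, quantile normalization gave 16 pathway genes for the average pulse, and leaving out dim clusters or using trend and robust settings gave 1 for the difference of the day 5 and day 3 pulses. Without any 1 array, counts ranged from 0 to 1 for the pulse on day 3, 0 to 2 on day 5, 0 to 1 for the difference of the day 5 and day 3 pulses, 0 to 1 over 12 h on each of days 3 and 5, 2 to 6 in pulsed cells of day 5 against day 0, 5 to 9 pathway genes on day 1 and 16 to 54 for the average pulse. The cause of these shifts was not tested. Without the widest arrays, replicate 1 was the sole 12 h control left on day 5, here and in the counts over all clusters.

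Over all clusters, the average pulse called 4860, against 496 without the widest arrays and 11125 with array weights, and the pulse on day 5 called 2860, against 55 and 11154. The pulse on day 1 called 877, against 1405 and 4573, and day 1 of withdrawal 1522, against 2150 and 3859. Without any 1 array these counts ranged from 2539 to 9253, 520 to 8617, 288 to 1126 and 821 to 1755. Shifts of over 1.5 times came for the pulse on day 1 from leaving out control replicate 2 (319) or pulse replicate 1 (372) or 2 (288), and for day 1 of withdrawal from leaving out day 0 replicate 3 (821) or withdrawal replicate 2 (993) or 3 (914). For the pulse on day 5 they came from each of its 6 arrays, and for the average from day 1 pulse replicate 2, day 3 control replicate 2, day 5 pulse replicates 2 and 3 and all 3 day 5 controls.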

Other observations

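Of the genes known as repressed by Tcf7l1 in mouse embryonic stem cells, Esrrb, a pluripotency receptor, changed by -0.36 ± 0.11, -0.66 ± 0.11 and -1.29 ± 0.11 log2 units on days 1, 3 and 5 of withdrawal (adjusted p = 0.0371, 1.80e-05 and 1.40e-10). Nanog, whose level the clone sets, was at -0.80, -0.53 and -1.18. Klf2 was at 0.20 ± 0.08, -0.08 ± 0.08 and -0.27 ± 0.08, called on day 5 (adjusted p = 0.00479), and Tfcp2l1 at 0.16, 0.17 and 0.16 ± 0.08, not called on any day (adjusted p = 0.303, 0.102 and 0.102). Tfcp2l1 was lower in the average pulse (-0.19 ± 0.05, adjusted p = 0.00643). Esrrb (0.11 ± 0.06, adjusted p = 0.194) and Klf2 (-0.02 ± 0.04, adjusted p = 0.762) were not called there.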
